A study of Rattus norvegicus with 241 samples.

Results

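Luminal cells sorted from the mammary glands of adult ACI rats given vehicle were compared between parous rats, which had a previous pregnancy, and virgin rats. Samples were taken from the bulk RNA-seq tables whose labels name adult ACI rats, luminal cells and the control arm, which gave 4 parous and 4 virgin rats, 8 of the 241 samples of the series and of its 202 bulk samples. The study treated rats with TGFBRi (LY2157299, which blocks the kinase of the type I TGFβ receptor) and profiled sorted mammary cells, and its adult experiment held virgin and parous rats of each arm. All rats used here were females of the inbred ACI strain, 18 to 24 weeks old. Vehicle rats were gavaged with vehicle alone in 2 doses per day for 10 days. TGFBRi rats received 75 mg/kg on the same schedule, and both were taken on day 0, when dosing ended. Luminal cells were gated as CD24+CD29low within the cells negative for CD31, an endothelial marker, and CD45, a leukocyte marker. The 4 virgin and 4 parous TGFBRi rats are separate animals although rat codes repeat (N1N, N1R, N2N and N2R for virgin, P1N, P1R, P2N and P2R for parous), and they gave the same parity contrast in other animals. The labels do not give the number of pregnancies, the time since weaning or the estrous stage, and they give age only as the range above.

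Luminal cells line the ducts and alveoli of the mammary gland. A hormone-sensing branch carries estrogen and progesterone receptors and answers ovarian hormones by secreting ligands to its neighbours, while an alveolar branch holds the progenitors that become milk-secreting alveolar cells in pregnancy. After weaning most alveoli regress, and the gland of a parous animal is known to keep some alveolar structures and a lasting expression of milk genes.

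Reads that fell on genes numbered 17381368 to 32063487 per vehicle library, and another 23.1 to 30.6% of reads fell on no gene and were left out. In the vehicle libraries 1007 to 2800 of 14266 listed genes were at 0, the most in parous rats P2R (2800) and P2N (2625). Luminal markers fitted the label in vehicle rats: the summed level of 9 luminal markers, among them KRT8, KRT18 and EPCAM, was 838497 to 1121085 normalized counts in virgin and 761993 to 1075906 in parous vehicle rats, against 2643 to 7560 for 11 basal markers in every vehicle rat but 1. That rat was virgin N1N, whose summed basal markers reached 66918. Its summed fibroblast markers were 45143 (2599 to 8464 in the other virgin rats, 4419 to 12750 in parous rats), its endothelial markers 7198 (950 to 1300 and 625 to 1633) and its leukocyte markers 11790 (588 to 729 and 554 to 1262). The genes named by rule and several gene lists are therefore also given without some or all of these rats. Over all genes, 4.25% were lower and 3.14% higher in parous rats at an unadjusted p under 0.05 without N1N. Without P2N and P2R the shares were 1.53% and 1.48%, and without all 3 rats 1.09% and 2.19%. With all 8 rats they were 5.96% and 3.59%, so counts without rats are to be read beside the smaller shares. In the TGFBRi libraries the luminal sums were 467860 to 1380859 in virgin and 634151 to 1331765 in parous rats. Virgin TGFBRi rat N2R had the lowest luminal sum (467860) and the highest fibroblast sum (17245) of that arm. Each rat is 1 animal, and p-values measure the spread between animals.

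**Figure D1:**
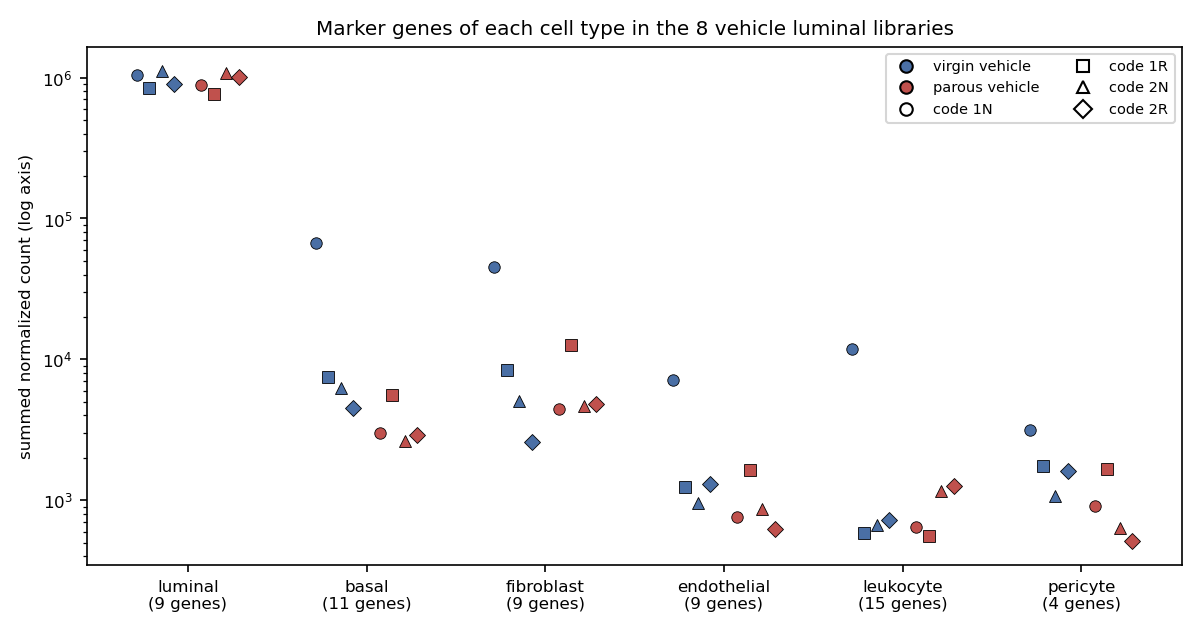
Summed normalized counts of marker genes (y axis, log scale) of luminal, basal, fibroblast, endothelial, leukocyte and pericyte cells (x axis) in the 8 vehicle luminal libraries, 1 point per rat, virgin in blue and parous in red, with the symbol giving the rat code. Luminal sums lay between 761993 and 1121085 in all rats, while virgin rat N1N stood above the other 7 in the basal, fibroblast, endothelial and leukocyte sums.

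Parity left no single gene past the threshold in vehicle rats by limma, and the genes with the smallest p stood farthest from the virgin rats in parous rats P2N and P2R. With limma 0 of 14243 genes tested had an adjusted p of 0.05 or less (0% called), and 1361 genes (9.56%) had an unadjusted p under 0.05, of which 512 were higher (3.59%) and 849 lower (5.96%) in parous rats. On the recovered reads edgeR called 3 genes (0.0211%), 2 higher and 1 lower in parous rats with MOB1A and MRC2 among them, and DESeq2 called 119 (0.835%), 48 higher (0.337%) and 71 lower (0.498%). Without P2N and P2R the DESeq2 count was 6, of which 5 were among the 119, without N1N it was 51 with 37 shared, and without all 3 rats it was 5 with 2 shared. These runs hold fewer rats per group. Genes at an unadjusted p under 0.05 by DESeq2 went from 1695 with all rats to 596 without P2N and P2R. The part of the smaller group in the lower counts was not tested. Leaving out parous P1R alone gave 29 limma calls, 9 higher and 20 lower. Among 9424 genes with a mean of at least 50 normalized counts, the values of the parous and virgin rats did not overlap for 673 (7.14%), 369 higher (3.92%) and 304 lower (3.23%) in parous rats.

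PIGR and GATA2, both chosen after their values were seen, stood apart in the parity contrast of either arm. PIGR is the polymeric immunoglobulin receptor, which carries IgA across the epithelium into milk, and GATA2 is a zinc-finger transcription factor best known from blood cell precursors. The 250 bases upstream of each gene's start are shown because these are the genes called when both arms are averaged. They were taken from RefSeq promoters of rat assembly GRCr8, another assembly than the rn6 of the read counts, for Pigr at chr13:44850932-44851181 (plus strand) and for Gata2 at chr4:122216031-122216280 (plus strand), with the E-box CACGTG, a word read by basic helix-loop-helix factors, in capitals.
Pigr: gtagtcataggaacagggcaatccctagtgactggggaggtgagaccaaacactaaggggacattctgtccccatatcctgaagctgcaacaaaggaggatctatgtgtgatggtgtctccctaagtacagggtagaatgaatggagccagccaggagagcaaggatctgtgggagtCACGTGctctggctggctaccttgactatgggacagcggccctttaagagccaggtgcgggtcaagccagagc
Gata2: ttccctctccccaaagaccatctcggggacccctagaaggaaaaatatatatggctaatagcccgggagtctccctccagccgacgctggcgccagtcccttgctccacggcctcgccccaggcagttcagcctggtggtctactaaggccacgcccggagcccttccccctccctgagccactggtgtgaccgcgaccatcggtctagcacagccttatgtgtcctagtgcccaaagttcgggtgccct

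CACGTG, which reads the same on both strands, lay once in the Pigr stretch, from 73 to 68 bases before the start, and not in the Gata2 stretch. Of the 33469 rat promoters of that length, 5.59% held it. The word GATA with A or T before it and A or G after it, searched on both strands, were in neither stretch and in 27.0% of all promoters. These matches describe the letters only.

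In vehicle rats PIGR was at 210.0, 331, 188 and 334 normalized counts in virgin rats N1N, N1R, N2N and N2R. It was at 1500, 2334, 597 and 847 in parous rats P1N, P1R, P2N and P2R. All 4 parous rats lay above all 4 virgin rats, with P1R and P1N the highest, and the group means were 1319 ± 776 and 266 ± 77.7 (SD, n = 4 each). The difference was 2.16 on the log2 scale, a 4.47-fold higher level (SE 0.45, limma adjusted p = 0.209), and DESeq2 called it (adjusted p = 2.10e-04) while edgeR did not (adjusted p = 0.12).

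The TGFBRi rats showed a PIGR difference of much the same size. Virgin TGFBRi rats had 543, 732, 659.5 and 144 normalized counts, and parous TGFBRi rats had 1994, 2122, 1807 and 1836. The lowest value, 144, was that of virgin N2R, the TGFBRi library with the lowest luminal marker sum. Again the groups did not overlap, and the log2 difference of 2.13 (SE 0.45) ranked first of all genes by p in that arm, without passing the threshold (limma adjusted p = 1). The difference of the 2 effects was −0.03 (SE 0.64, limma adjusted p = 0.996).

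GATA2 was at 453, 50.2, 10.5 and 7.04 normalized counts in virgin vehicle rats N1N, N1R, N2N and N2R and at 815, 1210, 573 and 1240 in parous vehicle rats P1N, P1R, P2N and P2R. No parous rat was as low as any virgin rat, and virgin N1N, the library with the high basal, fibroblast and leukocyte markers, lay far above the other virgin rats. The log2 difference was 4.58 (SE 0.97, limma adjusted p = 0.209). On recovered reads it was 2.88 by DESeq2 (adjusted p = 0.131) and 2.96 by edgeR (adjusted p = 0.403), so that neither called it and the fold was smaller than by limma. Without N1N it was 5.77, and GATA2 was then the only gene that limma called in vehicle rats (adjusted p = 0.0061), where DESeq2 called 51 genes. In the TGFBRi arm virgin rats had 58.4, 38.7, 22.6 and 7.52 and parous rats 853, 567, 1327 and 204, again without overlap, a log2 difference of 4.52 (SE 0.97).

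GATA2 is also a gene of mast cells and of some stromal cells. Of 5 mast cell markers 2 were listed, and their sum was 0 to 4.40 normalized counts in all vehicle luminal libraries. Leukocyte marker sums were 588 to 729 in virgin rats other than N1N and 554 to 1262 in parous rats, and endothelial sums were 950 to 1300 and 625 to 1633. The part of such cells in the GATA2 difference was not tested. In bulk samples, more cells of a type and more RNA per cell cannot be told apart.

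**Figure D2:**
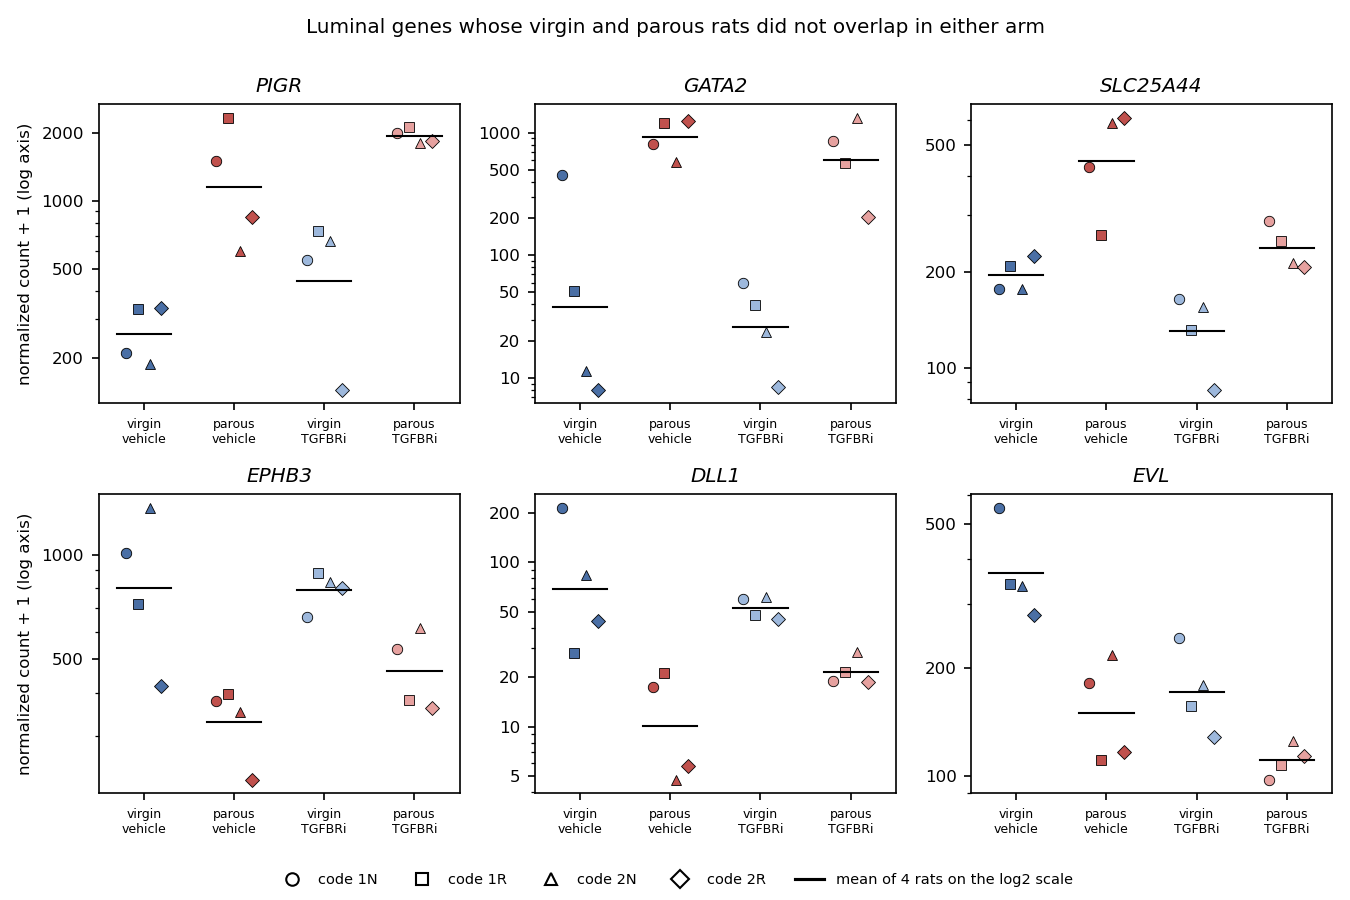
Normalized counts plus 1 (y axis, log scale) of 6 of the 14 genes whose parous and virgin rats did not overlap in either arm, with 1 point per rat, symbols for rat codes and bars at the group means on the log2 scale, for vehicle and TGFBRi rats (x axis). PIGR and GATA2 were higher in all 8 parous rats than in the virgin rats of the same arm, and EPHB3 and DLL1 were lower.

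Averaging the parity effect over both arms, 8 parous against 8 virgin rats, was added after the data were seen. PIGR and GATA2 then passed the threshold, 2 of 14243 genes (0.014%), both higher in parous rats. The averaged log2 difference was 2.15 for PIGR (SE 0.32, limma adjusted p = 0.0304), a 4.43-fold rise, and 4.55 for GATA2 (SE 0.69, limma adjusted p = 0.0304), a 23.4-fold rise by limma, with 1007 genes (7.07%) at an unadjusted p under 0.05, 507 higher (3.56%) and 500 lower (3.51%). The averaged GATA2 difference was smaller on recovered reads, 3.71 by DESeq2 (adjusted p = 8.61e-04) and 3.76 by edgeR (adjusted p = 0.334), while that of PIGR was 2.11 by either tool. edgeR called PIGR alone (0.00702%), and DESeq2 called 38 genes (0.267%), 20 higher and 18 lower. The calls stood close to the threshold: leaving out any 1 of the 16 rats gave 0 to 4 calls, with 0 in 10 of the 16 cases, among them each of the 4 parous TGFBRi rats. Without P2N and P2R PIGR alone was called, and without these and N1N the calls were PIGR, GATA2 and CRYAA. Without vehicle N1N alone GATA2 and CRYAA were called and PIGR was not.

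CRYAA, the lens chaperone αA-crystallin, was at 32.9, 0, 0 and 0 normalized counts in virgin vehicle rats N1N, N1R, N2N and N2R and at 68.9, 79.5, 35.8 and 54 in the parous ones. TGFBRi rats had 23.4, 0, 3.02 and 0 against 129, 145, 36.6 and 53.2. The groups did not overlap in either arm at these low levels, and the averaged fit gave a log2 difference of 4.62 (SE 0.82, limma adjusted p = 0.122), and 3.33 by DESeq2 and 3.36 by edgeR, fitted values that depend on the tool and the pseudocount since most virgin rats were at 0. CRYAA has a mean under 50 counts, so it is not among the genes counted next.

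Only 14 of the 9424 genes with a mean of at least 50 (0.149%) had groups that did not overlap in either arm with the same direction, 6 higher and 8 lower in parous rats. In the TGFBRi arm alone 141 genes (1.5%) did not overlap. Higher with parity beside PIGR and GATA2 were SLC25A44, a mitochondrial carrier of branched-chain amino acids, BABAM1, a subunit of a BRCA1 complex, TMED9, which moves cargo between the endoplasmic reticulum and the Golgi, and CCDC61. Lower were EPHB3, DLL1, EVL, DYNC2H1, PDLIM3, RNF167, GPRASP1 and ATG14. Leaving out N1N moved the vehicle difference from −0.45 to −0.26 for ATG14 and from −1.60 to −1.06 for PDLIM3. It moved from −1.28 to −1.17 for EPHB3, from −1.28 to −1.08 for EVL and from −1.49 to −1.27 for DYNC2H1. RNF167 went from −0.35 to −0.32 and GPRASP1 from −1.01 to −1.08. GPRASP1 was at 1.46 normalized counts in parous TGFBRi rat P1R and at 53.7 to 87.7 in the other parous TGFBRi rats.

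SLC25A44 had 175, 207, 176 and 223 normalized counts in virgin and 424, 260.3, 583 and 607 in parous vehicle rats, and 164, 130.5, 154 and 84.3 against 288, 248, 212 and 206 in TGFBRi rats. Its averaged log2 difference was 1.03 (SE 0.21, limma adjusted p = 0.377), and the difference of the effects in both arms was −0.32 (SE 0.43, limma adjusted p = 0.981). EPHB3, a receptor for ephrin-B ligands, had 1008, 717, 1365 and 416 in virgin and 377, 396, 351 and 224 in parous vehicle rats, an averaged difference of −1.03 (SE 0.22, limma adjusted p = 0.377). DLL1, a Notch ligand better known from basal cells of this gland, had 213, 27.1, 82.8 and 43.1 against 16.4, 20.2, 3.76 and 4.74. The highest DLL1 value was again that of N1N, and the other virgin rats still lay above all parous rats. The difference was −2.78 (SE 0.67), −2.23 without N1N and −1.29 without N1N, P2N and P2R. In the basal fraction, scaled separately, virgin rats had 4167 ± 1128 normalized counts of DLL1 (SD, n = 4), and the summed basal markers of the luminal libraries were 4517 to 66918 in virgin rats and 2643 to 5633 in parous rats. The part of basal cells in the DLL1 difference was not tested. EVL, an actin regulator, was at 377 ± 121 in virgin and 155 ± 51.2 in parous vehicle rats (SD, n = 4 each). The TGFBRi rats gave DLL1 means of 52.5 ± 8.09 and 20.9 ± 4.50 and EVL means of 175 ± 48.3 and 110.1 ± 11.5 (SD, n = 4 each). In the basal fraction of virgin vehicle rats EVL averaged 1486, PDLIM3 4622 and GPRASP1 412, against luminal means of 377, 257 and 98.6. DYNC2H1 averaged 188 and ATG14 216 there, against luminal means of 192 and 307. The part of basal cells in these differences was not tested.

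PIGR ranked 8 by p in vehicle rats and GATA2 13, and the genes described next had ranks of up to 11. By the naming rule, which took the 5 genes of smallest p in each direction with no overlap and a mean of at least 50, those described were ALAS1, MOB1A, COA5 and MAP3K12, higher in parous vehicle rats, and MRC2, ZBTB16, CEMIP2, URB2 and VCL, lower in them. None of these 9 was called by limma, and all 9 were called by DESeq2.

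MRC2, an endocytic collagen receptor, had 1028, 323, 670.1 and 741 normalized counts in virgin and 111, 134, 65.9 and 45.5 in parous vehicle rats. Parous rats were all below virgin rats, with P2N and P2R the lowest, a difference of −2.94 (SE 0.46, limma adjusted p = 0.0808). TGFBRi rats had 582, 131, 229 and 259.5 against 376, 190.0, 318 and 189, a difference of −0.02 (SE 0.46), and the difference between the arms was 2.92 (SE 0.65, limma adjusted p = 0.86). MRC2 averaged 4190 normalized counts in the basal fraction of virgin vehicle rats, scaled separately, against a luminal mean of 690. The part of basal cells in the MRC2 difference was not tested. ZBTB16, a transcription factor induced by glucocorticoids and progesterone, had 412, 927, 436 and 657 normalized counts in virgin and 142, 244, 54.6 and 133 in parous vehicle rats, a difference of −2.18 (SE 0.41). The order was the opposite in TGFBRi rats, with 402, 571, 240.0 and 494 in virgin and 704, 497, 853 and 1120 in parous rats, a difference of 0.90 (SE 0.41) with groups that overlapped. Its difference between arms had the smallest adjusted p of all genes by limma (3.09, SE 0.58, adjusted p = 0.693), and DESeq2 called it together with MOB1A and SNX6.

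ALAS1, the first enzyme of heme synthesis, was highest in P2R and lowest in P2N among the parous vehicle rats. Its values were 644, 1252, 738 and 861 normalized counts in virgin and 2084, 1722, 1646 and 2525 in parous rats, a difference of 1.21 (SE 0.22, limma adjusted p = 0.102). MOB1A, a coactivator of the Hippo kinases, averaged 1157 ± 184 and 4162 ± 2168, COA5, an assembly factor of cytochrome c oxidase, 2141 ± 348 and 5030 ± 1530, and MAP3K12, a kinase of the JNK pathway, 419.7 ± 81 and 1414 ± 662 (SD, n = 4 each). P2N and P2R held the highest 2 values of all 3 genes. Lower in parous rats were CEMIP2, a hyaluronidase of the cell surface, with 884 ± 239 against 250.1 ± 187, URB2, a ribosome biogenesis factor, with 254 ± 63 against 76.8 ± 46.4, and VCL, the adhesion protein vinculin, with 959 ± 328 against 324 ± 74.5 (virgin first, SD, n = 4 each). In the basal fraction of virgin vehicle rats the means were 5124 for VCL and 490 for URB2. Those of CEMIP2 and ZBTB16, 590 and 303, were below their luminal means of 884 and 608. The part of basal cells in these differences was not tested. Without P2N and P2R the difference moved from 1.68 to 1.00 for MOB1A, from 1.20 to 0.81 for COA5, from 1.61 to 1.00 for MAP3K12, from −2.09 to −1.24 for CEMIP2 and from −1.91 to −1.09 for URB2. It was −1.45 for VCL (−1.52 with all rats), 1.16 for ALAS1, −2.37 for MRC2 and −1.62 for ZBTB16, and none of the 9 was called by limma (adjusted p = 1 for each). The TGFBRi differences of the 6 genes from MOB1A to VCL lay between −0.37 and 0.09, and that of ALAS1 was 0.25 (SE 0.22).

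**Figure D3:**
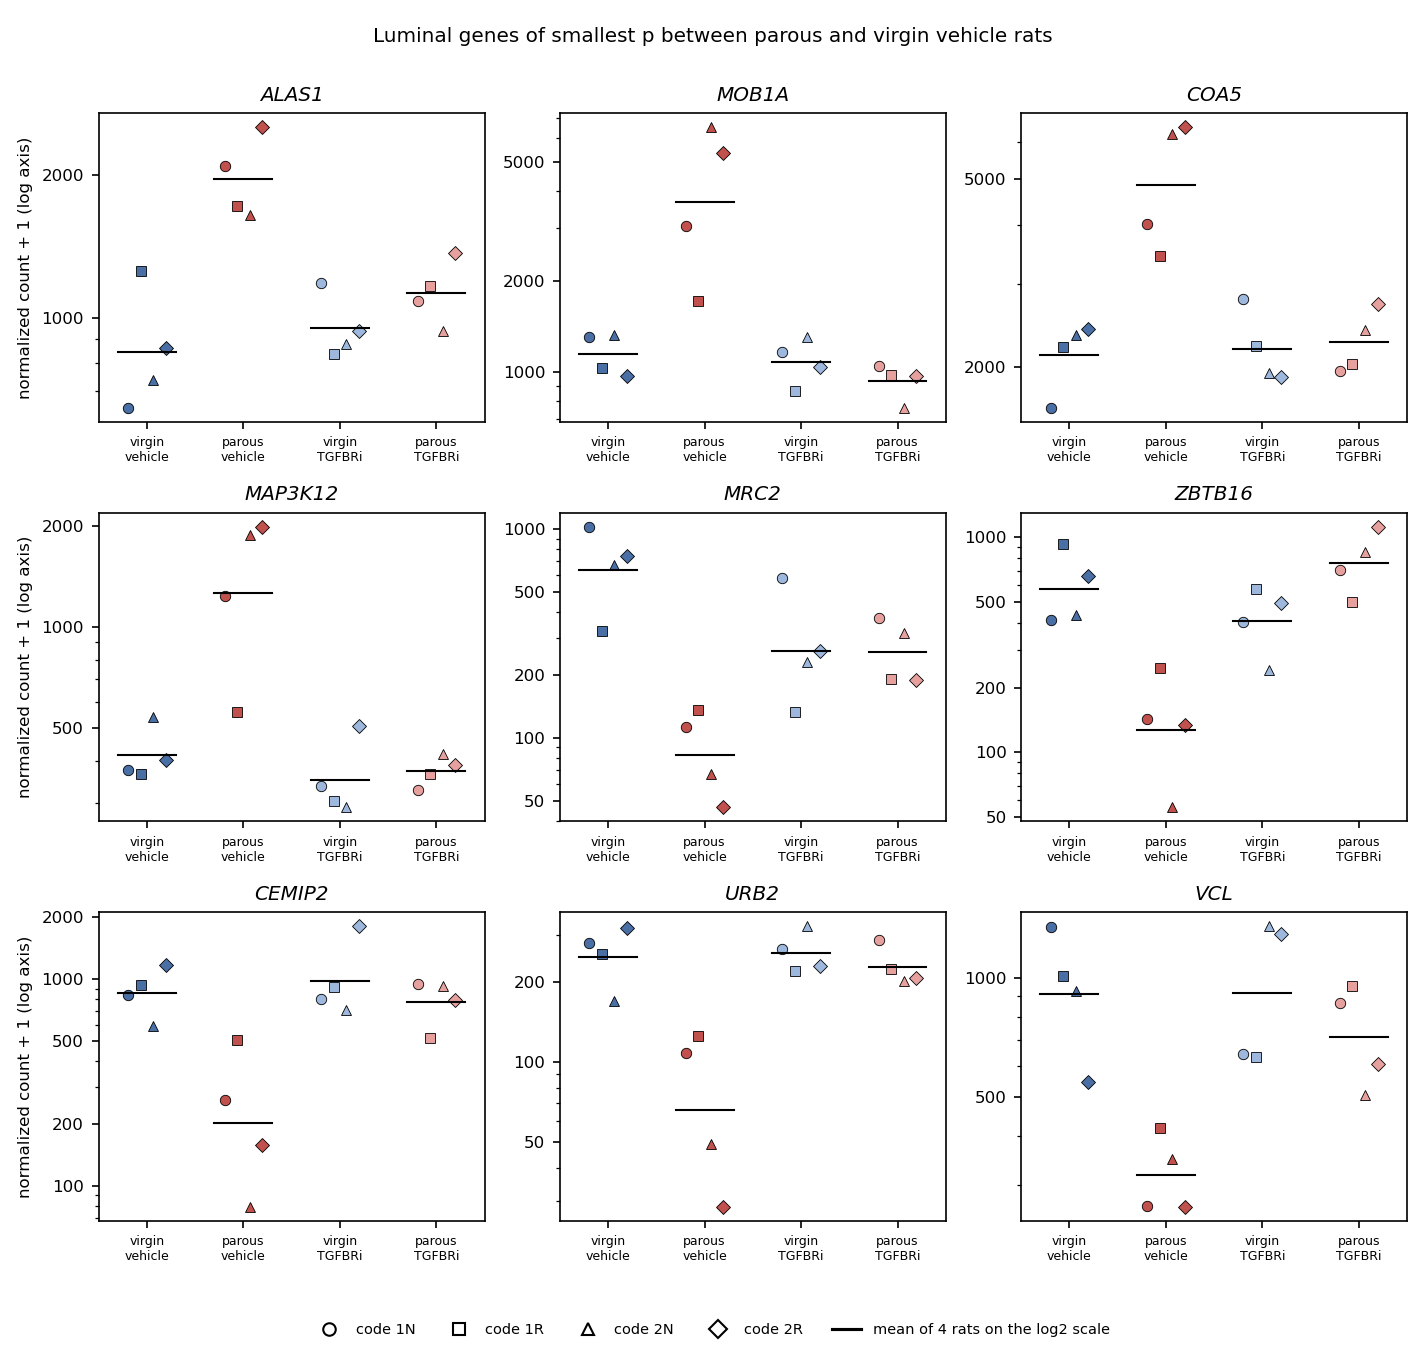
Normalized counts plus 1 (y axis, log scale) of 9 genes named by rule in luminal cells of the vehicle and TGFBRi groups (x axis), 1 point per rat, symbols for rat codes and bars at the group means on the log2 scale. MOB1A, COA5 and MAP3K12 had their highest values, and MRC2, CEMIP2 and URB2 their lowest, in P2N and P2R of the vehicle arm.

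Over the 50 genes of smallest p with a mean of at least 50, the median distance of a parous rat from the virgin mean was 1.59 on the log2 scale for P2R, 1.41 for P2N, 1.21 for P1N and 0.88 for P1R. Of these 50 genes 78% had the same sign in TGFBRi rats, as had 71% of the first 200, 63.2% of the first 500 and 56% of all 9424 genes with such a mean. The vehicle and TGFBRi contrasts share no rat. Of the 119 genes DESeq2 called in vehicle rats, 84 (70.6%) had the same sign in TGFBRi rats. Ribosomal protein genes, 80 by symbol and chosen after their values were seen, had a median difference of −0.66 in vehicle and 0.13 in TGFBRi rats, beside −0.04 and 0.05 over all genes. At an unadjusted p under 0.05 limma had 55 of the 80 lower (68.8%, beside 5.96% of all genes) and 0 higher in vehicle rats. Without P2N and P2R 23 were lower (28.8%, beside 1.53% of all genes) and the median was −0.61. DESeq2 called 5 of them lower, beside 0.498% of all genes. Without N1N it called 1 of 79 lower, beside 16 of all 14149 genes. Without P2N and P2R it called 0 of 80 lower, beside 3 of all 14208 genes.

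**Figure D4:**
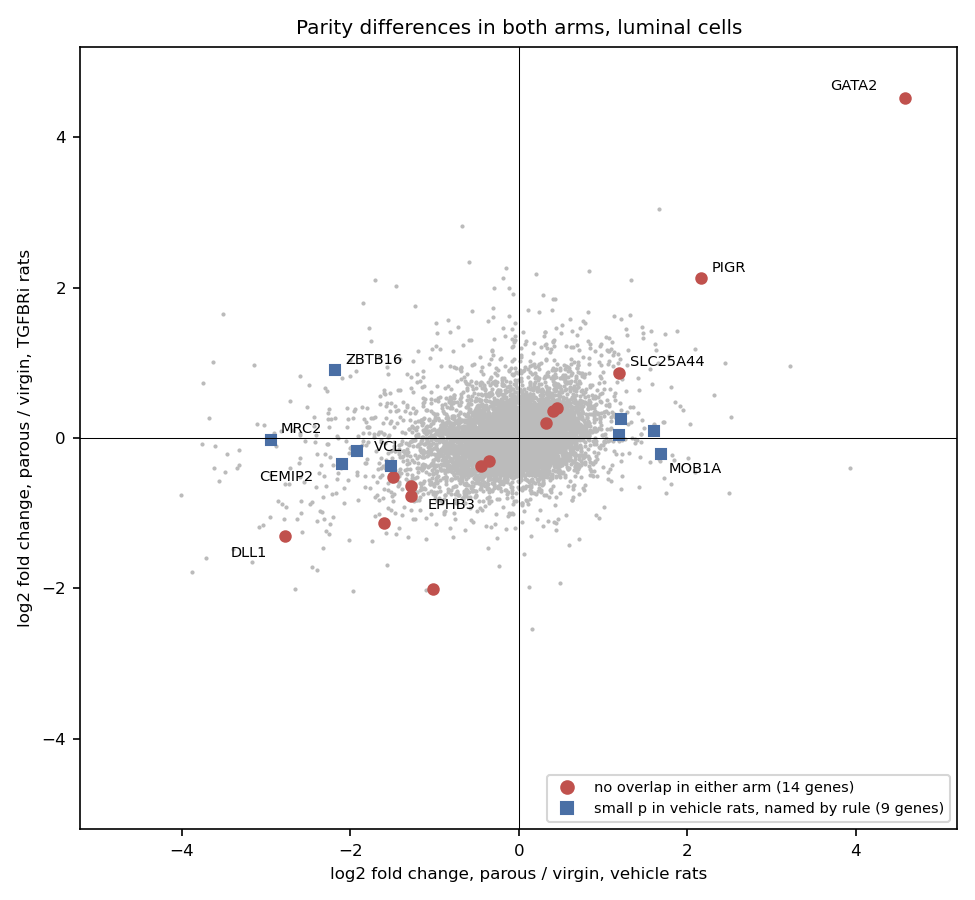
Log2 difference between parous and virgin luminal cells in vehicle rats (x axis) and in TGFBRi rats (y axis) for the 9424 genes with a mean of at least 50 normalized counts, 1 point per gene, with the 14 genes that did not overlap in either arm as red circles and 9 genes named by rule as blue squares. PIGR (2.16 and 2.13) and GATA2 (4.58 and 4.52) lay near the diagonal, while MOB1A (1.68 and −0.21) and MRC2 (−2.94 and −0.02) lay near the horizontal axis.

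In the TGFBRi arm itself limma called 0 genes, with 419 (2.94%) at an unadjusted p under 0.05, 2.23% of all genes higher and 0.716% lower in parous rats, and edgeR and DESeq2 called 0 as well. The difference of the parity effect between the arms gave 0 calls by limma, with 606 genes (4.25%) at an unadjusted p under 0.05, 416 with a larger value in TGFBRi rats (2.92%) and 190 with a smaller one (1.33%), 0 by edgeR and 3 by DESeq2 (0.0211%). IL23A and FCRLB, chosen after their values were seen, were among the first genes by p in TGFBRi rats. IL23A, a subunit of the cytokine IL-23, was at 929, 804, 977 and 877 normalized counts in virgin and 2487, 2097, 1188 and 1053 in parous vehicle rats. These groups did not overlap, with P1N and P1R clearly higher than P2N and P2R, and the difference was 0.84 (SE 0.48) against 2.22 (SE 0.48) in TGFBRi rats. The TGFBRi groups overlapped, with 1332, 198, 323 and 209.9 in virgin rats and 3199, 1441, 1569 and 1177 in parous rats. FCRLB, a protein related to Fc receptors, was at 181 ± 37.1 in virgin and 496 ± 253 in parous vehicle rats and at 173 ± 166 and 579 ± 182 in TGFBRi rats (SD, n = 4 each).

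Milk genes were then considered, since caseins and their partners are the products of the alveolar branch. Of 20 milk protein genes 19 were tested, and none was called in vehicle rats. PIGR alone had an unadjusted p under 0.05 there (5.26% higher, beside 3.59% of all genes), 10 of 19 were higher in parous rats and the median difference was 0.09, beside −0.04 over all genes tested. With P2N and P2R left out 3 were higher at that p (15.8%, beside 1.48% of all genes) and the median was 0.30, and it was 0.37 without N1N as well. In TGFBRi rats 17 of 19 were higher and the median was 0.64, beside 0.05 over all genes. CSN2 (β-casein) was at 13689, 163488, 95957 and 74954 normalized counts in virgin and 360217, 473430, 43152 and 77768 in parous vehicle rats. P1N and P1R were above all virgin rats while P2N and P2R were not, and the difference was 1.29 (SE 0.80, limma adjusted p = 0.642). Of the parous TGFBRi rats P1N and P2N had 511484 and 473743 and P1R and P2R 160483 and 111337, against 63972 to 160051 in virgin rats, so that P2R lay within the virgin range. CSN3 (κ-casein) averaged 584821 ± 85987 in virgin and 502845 ± 82496 in parous vehicle rats, and MFGE8, a milk fat globule protein, 274908 ± 67063 and 235909 ± 45988 (SD, n = 4 each), which overlapped.

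Of 28 tested genes of milk fat synthesis and secretion 2 were higher and 1 lower at an unadjusted p under 0.05 (7.14% and 3.57%, beside 3.59% and 5.96% of all genes), and the median was 0.10. Leaving out P2N and P2R gave 3 higher and 0 lower (10.7% and 0%, beside 1.48% and 1.53% of all genes). The median was then 0.34, beside 0.02 over all genes, and without all 3 rats it was 0.40. ELOVL5, which lengthens fatty acids, was higher by 0.68 (SE 0.21, limma adjusted p = 0.374). FABP4, a fatty acid carrier typical of adipocytes and endothelium, differed by −2.59 (SE 0.76, limma adjusted p = 0.348), and its highest value was that of N1N (16448 against 1379 to 3189 in the other virgin rats). OLAH, which sets the chain length of milk fatty acids, had 82981, 82715, 89983 and 81375 normalized counts in virgin and 116186, 142541, 109127 and 108034 in parous rats. These groups did not overlap, and the difference of 0.49 was small against the spread shared with the TGFBRi rats (SE 0.54). PLIN2, the coat protein of lipid droplets, averaged 123714 ± 29127 and 172508 ± 32037 (SD, n = 4 each).

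Transporters of water, ions and nutrients gave 28 tested genes, 3 higher (10.7%, beside 3.59% of all genes) and 2 lower (7.14%, beside 5.96%) at an unadjusted p under 0.05, with a median of −0.04 in vehicle and 0.31 in TGFBRi rats. The counts were 2 and 0 without P2N and P2R (7.14% and 0%, beside 1.48% and 1.53% of all genes). Averaged over both arms 6 were higher and 0 lower at that p, beside 3.56% and 3.51% of all genes. CAR2, a carbonic anhydrase, had 2208, 2490, 1562 and 2221 normalized counts in virgin and 4265, 8272, 3723 and 4926 in parous vehicle rats, which did not overlap (difference 1.27, SE 0.38, limma adjusted p = 0.358). SLC30A2, the zinc exporter that supplies milk, was higher by 1.80 (SE 0.70, limma adjusted p = 0.444) at means of only 32.2 and 76.6. The 3 members of highest level, SLC3A2, AQP5 and SCNN1B, differed by −0.23, 0.31 and 0.44 with standard errors of 0.29, 0.27 and 0.44.

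Luminal progenitor and alveolar regulators counted 21 tested genes, 15 of them higher in parous vehicle rats, beside 46.1% of all genes, with 0 higher and 1 lower at an unadjusted p under 0.05 (beside 3.59% and 5.96% of all genes) and a median of 0.12. ELF5, the master factor of the alveolar fate, was at 387, 592, 661 and 738 normalized counts in virgin and 932, 1012, 652 and 824 in parous rats, which overlapped through N2N, N2R and P2N (difference 0.54, SE 0.39). ALDH1A3, a marker of luminal progenitors, differed by −1.42 (SE 0.67), with the highest value in N1N. Mature luminal and hormone-sensing genes counted 21, of which 8 were higher and 13 lower, with a median of −0.18 in vehicle and 0.15 in TGFBRi rats. ESR1 averaged 282 ± 117 in virgin and 183 ± 78.3 in parous vehicle rats and PGR 652 ± 254 and 549 ± 113 (SD, n = 4 each), and both overlapped. CITED1, an ERα coactivator, spread from 489 to 11642 in virgin and from 2601 to 9078 in parous rats.

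Ligands and receptors of the signals between epithelial cells were taken list by list, and none of them was called by limma. Of 15 EGF family ligands and receptors tested 4 were higher and 11 lower, with 1 higher and 3 lower at an unadjusted p under 0.05 (beside 3.59% and 5.96% of all genes) and a median of −0.62 (−0.26 without N1N, −0.09 without N1N, P2N and P2R, −0.24 in TGFBRi rats). AREG, the EGF receptor ligand that carries the estrogen signal in the growing gland, had 5239, 6010, 5908 and 6714 normalized counts in virgin and 2995, 3894, 3112 and 4435 in parous rats. All parous rats were below all virgin rats, a difference of −0.74 (SE 0.29, limma adjusted p = 0.46), while in TGFBRi rats it was −0.11 (SE 0.29). Without N1N 2 were lower at that p (13.3%, beside 4.25% of all genes), and without P2N and P2R 1 was lower (6.67%, beside 1.53%) and 0 higher. NRG2, a ligand of ERBB3 and ERBB4, had 504, 100.4, 130.1 and 242 against 34.4, 40.5, 0.941 and 7.58, a difference of −4.01 (SE 0.87, limma adjusted p = 0.209), and −0.75 (SE 0.87) in TGFBRi rats. The highest NRG2 value was that of N1N and the lowest were those of P2N and P2R, and the difference was −3.56 without N1N, −2.39 without P2N and P2R and −1.95 without all 3. In the basal fraction of virgin vehicle rats, scaled separately, NRG2 averaged 3278 normalized counts. The part of basal cells in the NRG2 difference was not tested. ERRFI1, a feedback inhibitor of the EGF receptor, was higher by 0.71 (SE 0.31) and HBEGF, the member of highest level, differed by 0.02 (SE 0.49).

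The IGF axis had 2 of 18 tested members higher and 16 lower, with 3 lower at an unadjusted p under 0.05 (16.7%, beside 5.96% of all genes) and a median of −0.97 in vehicle rats. Without N1N, P2N and P2R 1 was lower at that p (5.56%, beside 1.09%). The IGF median was −0.61 without N1N, −0.12 without N1N, P2N and P2R, and 0.15 in TGFBRi rats. IGF2R, which takes up IGF2, had 1042, 1348, 1064 and 1094 normalized counts in virgin and 769, 860.4, 498 and 466 in parous vehicle rats, without overlap (difference −0.85, SE 0.21, limma adjusted p = 0.242). The TGFBRi groups lay the other way, 1600 ± 258 in virgin and 2128 ± 273 in parous rats (SD, n = 4 each), and the difference between the arms was 1.27 (SE 0.29, limma adjusted p = 0.86). IRS2, an adaptor of insulin and IGF receptors, was at 2206 ± 666 in virgin and 1038 ± 397 in parous vehicle rats (SD, n = 4 each).

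Of 19 tested Notch genes 4 were lower and 0 higher at an unadjusted p under 0.05, beside 5.96% and 3.59% of all genes, and without N1N 1 was lower (5.56%, beside 4.25% of all genes). The 4 were the receptors NOTCH1, NOTCH2 and NOTCH3 and the ligand DLL1, with a median of −0.41 (0.15 without N1N, P2N and P2R, 0.17 in TGFBRi rats). NOTCH3 is also 1 of the 4 pericyte markers summed above, of which RGS5 differed by −2.11 (unadjusted p = 0.00569 by limma), and the pericyte sum was 3179 in N1N, 1073 to 1755 in the other virgin rats and 511 to 1662 in parous rats. The part of pericytes in the Notch values was not tested. HES1, the Notch target of highest level, differed by 0.05 (SE 0.33). NOTCH2 was at 1926, 1257, 1167 and 823 normalized counts in virgin and 686, 1050, 159 and 252 in parous rats, so that only P2N and P2R were far below the virgin rats. The 36 tested Wnt genes had a median of −0.47 (−0.12 without N1N, 0.16 without N1N, P2N and P2R, 0.29 in TGFBRi rats) with 2 lower at that p, and WNT4, a progesterone target of luminal cells, averaged 2625 ± 954 and 1876 ± 725 (SD, n = 4 each). TGFβ ligands, receptors and SMADs counted 30 tested genes, 15 higher and 15 lower, with 1 higher and 4 lower at that p (beside 3.59% and 5.96% of all genes) and a median of −0.04. Without N1N 2 were lower (6.67%, beside 4.25% of all genes), and without P2N and P2R 0 were (beside 1.53%). TGFBR1, the kinase that TGFBRi blocks, had 982, 1166, 711 and 724 against 395, 826, 478 and 443 (difference −0.77, SE 0.26, limma adjusted p = 0.382).

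Cholesterol synthesis was the set with the most members higher in parous vehicle rats at an unadjusted p under 0.05, 6 of 24 beside 3.59% of all genes, with 20 of 24 higher and a median of 0.50. Without N1N 2 were higher at that p (8.33%, beside 3.14% of all genes) and without P2N and P2R 0 were (beside 1.48%). The median was 0.42 without N1N, 0.31 without P2N and P2R, 0.19 without all 3 and 0.01 in TGFBRi rats. SQLE, the enzyme that oxidizes squalene, had 296, 501, 307 and 523 normalized counts in virgin and 531, 525, 1941 and 1269 in parous rats, a difference of 1.21 (SE 0.45, limma adjusted p = 0.434). P1N and P1R lay just above the highest virgin rat, and P2N and P2R far above it. INSIG1, which holds back the sterol-regulated factor SREBP, differed by 0.85 (SE 0.38), with 16847 and 14380 in P2N and P2R and 5645 and 8674 in P1N and P1R.

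Basal and matrix genes were then taken beside the non-luminal marker sums given above, which were highest in N1N and otherwise overlapped between the groups. The basal sums overlapped only through parous P1R (5633). They were 3013, 2643 and 2890 in P1N, P2N and P2R, and 4517 to 7560 in virgin rats other than N1N. Of 14 basal keratin and myoepithelial genes 13 were lower, 7 at an unadjusted p under 0.05 beside 5.96% of all genes, with a median of −1.58. Collagens and matrix genes had 29 of 34 lower, 12 at that p, and a median of −1.08. KRT17, a basal keratin, had 22681, 2803, 2968 and 1244 normalized counts in virgin and 769, 1209, 631 and 770.2 in parous rats, and COL4A1, a basement membrane collagen, 7534, 1115, 373 and 695 against 402, 1341, 24.5 and 206. N1N held the highest value of both, and P2N the lowest. Without N1N 4 basal and 4 matrix genes were lower at that p (28.6% and 11.8%, beside 4.25% of all genes). Without P2N and P2R 2 and 1 were (14.3% and 2.94%, beside 1.53%), and without all 3 rats 0 and 0 were (beside 1.09%). Without N1N the medians were −0.75 and −0.65, and without N1N, P2N and P2R they were −0.23 and 0.17. In TGFBRi rats the medians were −0.67 and −0.20, with 0 of 14 and 14 of 34 members higher. Averaged over both arms 7 basal and 7 matrix genes were lower at that p, beside 3.51% of all genes. The summed basal markers of the luminal TGFBRi libraries were 2410 to 5264 in virgin and 1314 to 3997 in parous rats. The part of non-luminal cells in these differences was not tested.

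Interferon-stimulated genes were lower in 26 of 34 tested members, 4 at an unadjusted p under 0.05 (11.8%, beside 5.96% of all genes), with a median of −0.29 in vehicle and −0.10 in TGFBRi rats. Without N1N 1 was lower at that p (2.94%, beside 4.25% of all genes) and without P2N and P2R 0 were (beside 1.53%). RSAD2 (viperin), an antiviral enzyme, had 193, 31.1, 219 and 325 normalized counts in virgin and 53.2, 37.6, 32 and 0 in parous rats, and N1R overlapped with the parous group. B2M, the light chain of class I molecules, had 59867, 49370, 46392 and 48290 against 34401, 23410, 20202 and 23997, without overlap (difference −1.02, SE 0.33, limma adjusted p = 0.374), but 40560 ± 17256 and 45357 ± 19209 in TGFBRi rats (SD, n = 4 each). Of the proliferation genes, 38 of S phase had a median of 0.12 and 50 of G2/M a median of −0.19, with 1 higher at an unadjusted p under 0.05 in either set and 1 and 3 lower, at or near the shares of all genes (3.59% and 5.96%). Without P2N and P2R the medians were 0.68 and 0.49, so that the direction of the G2/M genes turned, with 3 and 1 higher and 0 and 1 lower at that p, beside 1.48% and 1.53% of all genes. MKI67, a mark of dividing cells, was at 25, 0.797, 0 and 70.4 normalized counts in the virgin vehicle rats and at 23.5, 23.1, 0 and 0 in the parous ones. The 20 CDK inhibitors and G1 regulators tested had 0 genes at that p and a median of 0.17. Of 19 tested TGFβ targets 1 was higher and 4 lower at that p (5.26% and 21.1%, beside 3.59% and 5.96% of all genes). Without N1N 2 of them were lower (10.5%, beside 4.25%), and without P2N and P2R 0 (beside 1.53%). Their median was −0.29 with all rats, 0.09 without N1N, 0.28 without all 3 and 0.26 in TGFBRi rats, so that its direction rested on N1N. The remaining lists had vehicle medians between −0.38 (estrogen and progesterone targets) and 0.15 (histones and chromatin modifiers), and in between lay antigen presentation, glucocorticoid-responsive genes, chemokines, acute-phase genes, luminal keratins and junctions, hormone receptors and the RANK axis, heat shock chaperones, NRF2 genes, clock genes and immediate early genes. Without N1N the median of the estrogen and progesterone targets was −0.15, and without all 3 rats it was 0.14 (0.22 in TGFBRi rats). Those of antigen presentation (−0.29 to 0.04), chemokines (−0.15 to 0.15), acute-phase genes (−0.10 to 0.06) and immediate early genes (−0.02 to 0.10) turned without N1N. Those of heat shock chaperones (−0.05 to 0.003) and NRF2 genes (−0.04 to 0.008) did as well. The NRF2 median was −0.21 without P2N and P2R and −0.18 in TGFBRi rats. Clock genes had 2 of 15 tested members lower at an unadjusted p under 0.05 (13.3%, beside 5.96% of all genes). Without N1N, P2N and P2R 2 were lower as well (13.3%, beside 1.09%). The clock median was −0.03 with all rats, −0.23 without all 3 and 0.20 in TGFBRi rats. No member of any list was called by limma in vehicle rats.

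**Figure D5:**
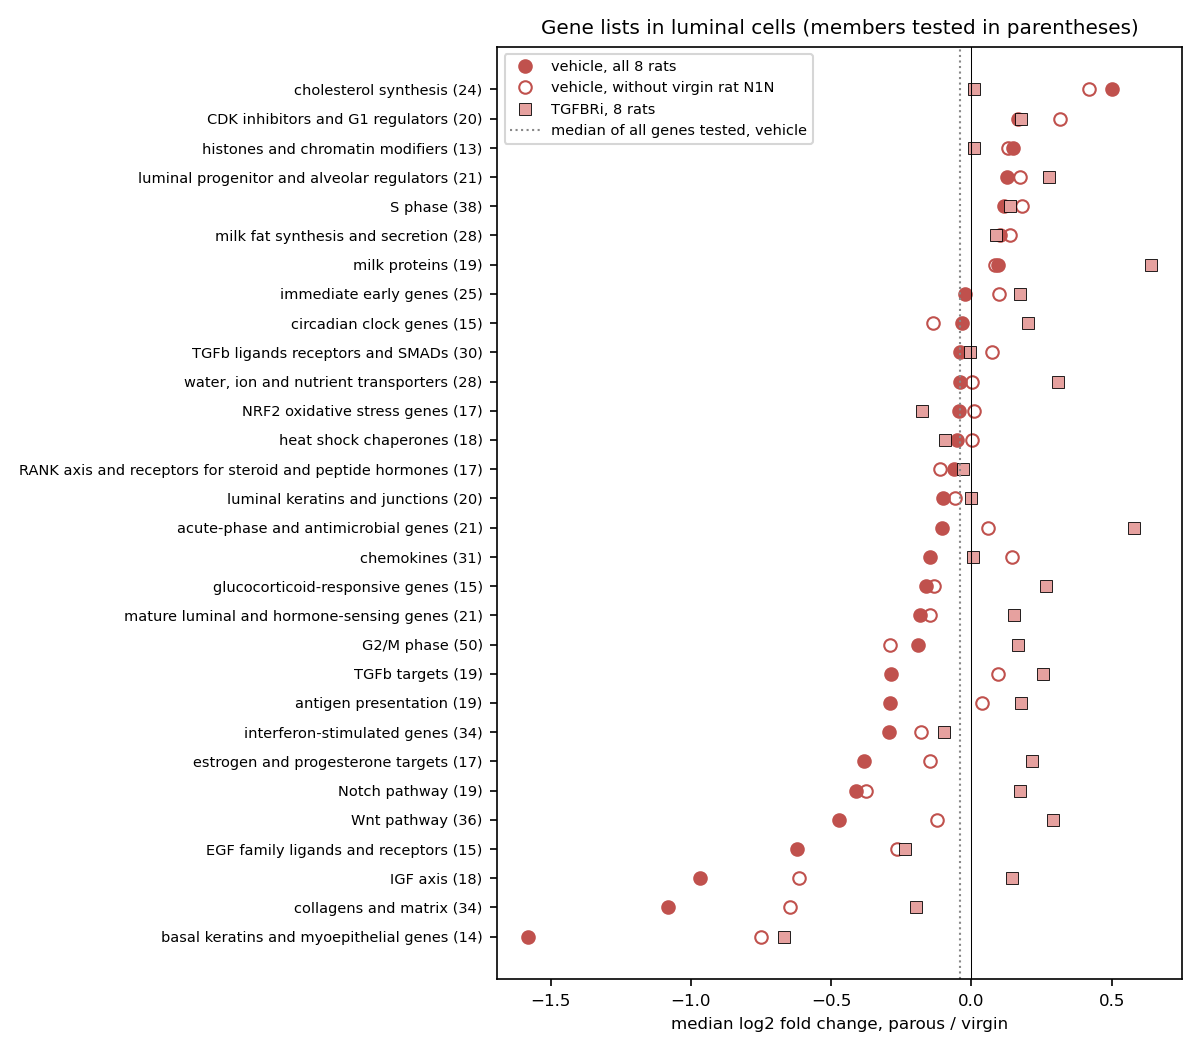
Median log2 difference between parous and virgin luminal cells (x axis) for each gene list (y axis) in vehicle rats, in vehicle rats without N1N, and in TGFBRi rats, with the vehicle median of all 14243 genes tested as a dotted line. Basal keratin and myoepithelial genes (−1.58), collagens and matrix (−1.08) and the IGF axis (−0.97) had the lowest vehicle medians, and cholesterol synthesis (0.50) the highest.

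Basal cells of the same vehicle rats, sorted as CD24+CD29high and scaled apart from the luminal libraries, gave 0 of 13442 genes called by limma, 408 (3.04%) at an unadjusted p under 0.05, 170 higher (1.26%) and 238 lower (1.77%) in parous rats, and 0 by edgeR with 662 at that p. PIGR was at 30.0, 13.3, 17 and 0.928 normalized counts in basal cells of virgin and 57.2, 76.5, 1.04 and 36 of parous rats, a log2 difference of 1.12 (SE 1.39) with groups that overlapped. GATA2 was at 484, 37.5, 97.5 and 39 in virgin and 21.8, 65.6, 81.9 and 128 in parous rats, a difference of −0.55 (SE 1.49), and N1N was again the highest virgin rat. The basal library of N1N held summed luminal markers of 449878 (76486 to 111267 in the other 7), leukocyte markers of 30494 (220 to 463) and basal markers of 394997 (676103 to 816846). Without N1N the basal differences were 1.61 (SE 1.5) for PIGR and 0.25 (SE 1.57) for GATA2. The luminal differences beside these were 2.16 and 4.58, and since the fractions were scaled separately, the difference between fractions was not tested.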

How the data were processed

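Bulk RNA-seq of sorted luminal cells was used from 16 adult ACI rats, 4 per group, with basal cells of the same groups beside them. Per the study's methods and the submitters' processing notes, the authors aligned reads with STAR 2.5.1b to rn6, counted them without strand on refGene genes with HTSeq and divided each library by a DESeq2 1.30.1 size factor, separately for each cell fraction. The deposited values are thus a normalized signal per gene symbol, called normalized counts here. Whole reads were recovered by 1 constant per library: 100% of 397248 values above 0 in the luminal and basal libraries came out whole at a tolerance of 0.001. Reads on no gene (23.1 to 35.2% of a luminal library) were left out. Overlapping genes and antisense partners cannot be told apart.

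Groups came from the labels. Genes whose luminal values added up to 10 or more (14243) entered 1 limma (3.58.1) fit of all 4 luminal groups on log2(value + 1), in which the prior variance followed the mean level (trend) and was set robustly. A gene was called at an adjusted p (Benjamini-Hochberg) up to 0.05. The design named edgeR for raw counts, but these values are normalized, so quasi-likelihood edgeR (4.0.16) and DESeq2 1.42.0 on recovered reads (R 4.3.3) were alternatives, as were other pseudocounts, filters and scalings, a replicate block and leaving out rats. Fold changes are on the log2(value + 1) scale, which shrinks those of genes near 0, and as means of logs they can also exceed the folds of count models where rats of a group differ widely. The fits were tested on simulated data. Named genes were up to 12 called per direction with a mean of at least 50 and no overlap, filled to 5 by smallest p, and up to 3 members of highest mean per list; other genes were chosen after their values were seen. Some genes that the rule names are not reported here. The members and the 30 gene lists were chosen with earlier results of these data known. Promoters came from RefSeq (GRCr8), which held 11024 of the 14243 genes by symbol.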

Additional observations from a re-analysis of the deposited data

Results flagged for a closer look

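In each vehicle group of 4 rats, the gap between the highest or lowest rat and its nearest neighbour was set against the range of the group. Of 46 groups tested 12 had a rat that stood apart. Sums from the same library are not independent of each other, so no chance rate is set beside this count. Virgin rat N1N stood apart in 8 of the 12 groups. It had 453 normalized counts of GATA2 (7.04 to 50.2 in the other virgin rats) and summed marker levels of 66918 for basal, 45143 for fibroblast, 7198 for endothelial, 11790 for leukocyte, 22.7 for plasma cell, 2271 for adipocyte and 59 for erythroid cells. Parous rat P1R stood apart with 5633 summed counts of basal and 12750 of fibroblast markers. The mast cell markers were above 0 in single rats, virgin N2R at 4.40 and parous P1R at 4.34 normalized counts. With the other rats of a group at 0, the rule marks such a rat whatever its value. GATA2 and the markers of other cell types were thus both high in N1N, and the part of other cells in its GATA2 level was not tested.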

How the results depend on the processing

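In vehicle rats 0 genes were called by limma with pseudocounts of 0.5 and 4, no filter, a mean of at least 10, TMM rescaling, no trend, only the 8 vehicle samples, and without P2N and P2R or these and N1N. The count was 3 with edgeR, 119 with DESeq2, 51 with DESeq2 without N1N, 6 without P2N and P2R and 5 without all 3 rats, and 0 to 29 with 1 rat left out. For TGFBRi rats it was 0 to 1 with 1 rat left out (IL23A without N1N, FCRLB without N2R), for the difference between arms 0 to 1 (MOB1A without vehicle P1R) and 3 with DESeq2, and for basal cells 0 to 0. Averaged over both arms, 2 calls became 0 without trend and robust variances, 1 with edgeR, 38 with DESeq2 (31 without N1N, 16 without P2N and P2R, 18 without all 3), 1 without P2N and P2R by limma, and 0 to 4 with 1 rat left out. PIGR kept its call there in 15 of 27 alternatives and GATA2 in 12 of 27, and neither these 2, CRYAA nor the 9 described genes named by rule changed direction in any alternative run. Leaving out N1N, P2N and P2R together or P2N and P2R as a pair was chosen after seeing the data. Rat codes were not used to pair the animals in the main fit. Deviations of rats with the same code correlated between −0.152 and 0.0999, and those of rats with different codes between −0.252 and 0.315. A cage or day shared by rats of 1 code was not tested. With the replicate block 1 gene (MRC2) was called in vehicle rats and 3 (PIGR, GATA2 and CRYAA) over both arms. Library depth was 17381368 to 32063487 reads on genes in vehicle rats, so a value of 0 says only that no read was counted at that depth. The cause of these changes was not tested.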
